A study of Mus musculus with 24 samples.

Results

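The eye cup is what remains of the back of the eye once the neural retina has been lifted off, and it holds the retinal pigment epithelium (RPE), the choroid and the sclera. The 6 libraries described here, of 24 in the series, are the eye cups of 3 PRDM13-OE mice and 3 wildtype littermates that had all received doxycycline (dox). They were chosen by their labels alone. PRDM13-OE mice carried 1 copy of an inducible cassette of about 6 kb at the Rosa26 locus on a C57BL/6J background, made of rtTA under EF-1α, which is active in most cell types, and of an HA-tagged human PRDM13 that answers to dox through TRE3G. From postnatal day 28 both genotypes drank water holding dox (2 mg/mL) and sucrose (10%), over 72 hours, so that both groups share the dox and the sucrose. Eye cups of 3 untreated PRDM13-OE and 3 untreated wildtype mice, and the neural retinas of the same 12 mice, served as reference. The cassette is not restricted to an ocular cell type, so a difference in the eye cup may arise in any of its cells.

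The RPE is a single layer of pigmented cells that regenerates the visual chromophore, takes up shed photoreceptor outer segments and moves water, ions and lactate between retina and blood. The choroid behind it is a vascular bed with pericytes, melanocytes, mast cells and macrophages, and the sclera is a collagen-rich coat made by fibroblasts. PRDM13 is a zinc finger protein of the PRDM family that acts in the specification of amacrine cells in the retina. Photoreceptor outer segments interdigitate with the apical processes of the RPE, and a dissected eye cup can therefore keep pieces of outer retina.

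Each eye cup had between 16092096 and 24908314 counted reads, and libraries were compared as CPM, read counts divided by the library's total after TMM scaling. The labelled tissue was present in all 6 libraries. Rpe65, the isomerase of the visual cycle, stood at 389, 794 and 421 CPM in PRDM13-OE mice 1 to 3 and at 506, 614 and 1117 CPM in wildtype mice 1 to 3, and the collagen gene Col1a2 was at 227 CPM or more in each. The 3 PRDM13-OE eye cups with dox had no counts of the Y-linked gene Ddx3y, whereas wildtype mouse 3 had 43.5 CPM and no counts of Xist, so that sex was not balanced between the groups. Outside the 6 libraries, the pseudogene Gm13394, which was between 206 and 531 CPM in 5 of the 6 PRDM13-OE eye cups, was at 3.06 CPM in the eye cup labelled untreated PRDM13-OE mouse 1, within the range of the wildtype eye cups (2.11 to 7.61 CPM). With the rod slope described below, the numbers of calls, the median of the eye cup class and the called genes are given with and without it.

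The eye cups differed widely in how much retinal RNA they held. The summed level of 15 rod genes, among them Gnat1, which encodes rod transducin, was 13865, 6546 and 42674 CPM in PRDM13-OE eye cups 1 to 3 and 53977, 41524 and 28165 CPM in wildtype eye cups 1 to 3. PRDM13-OE mice 1 and 2 lay below every wildtype mouse, while PRDM13-OE mouse 3 lay among them. Set against the rod level in the neural retina of the same mouse, the eye cup held 22.9%, 10.6% and 63.2% in PRDM13-OE mice and 64.7%, 49.8% and 35.02% in wildtype mice, a mean of 32.2% ± 27.5 (SD, n = 3) against 49.8% ± 14.8 (SD, n = 3). This ratio is called the retina share below. The log2 rod level was 1.34 lower in PRDM13-OE on average, written as −1.34 (exact permutation test, two-sided, p = 0.3, where 3 against 3 cannot go below 0.1). The retinas themselves differed in the same direction by −0.38 (exact permutation p = 0.1), so the rod level cannot be taken as independent of genotype in mice with dox. In untreated retinas it was 87749, 81227 and 80921 CPM in PRDM13-OE and 82829, 84363 and 85369 CPM in wildtype. The untreated eye cups had retina shares of 17.0%, 30.8% and 10.8% in PRDM13-OE and 33.2%, 4.66% and 16.5% in wildtype.

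**Figure D1:**
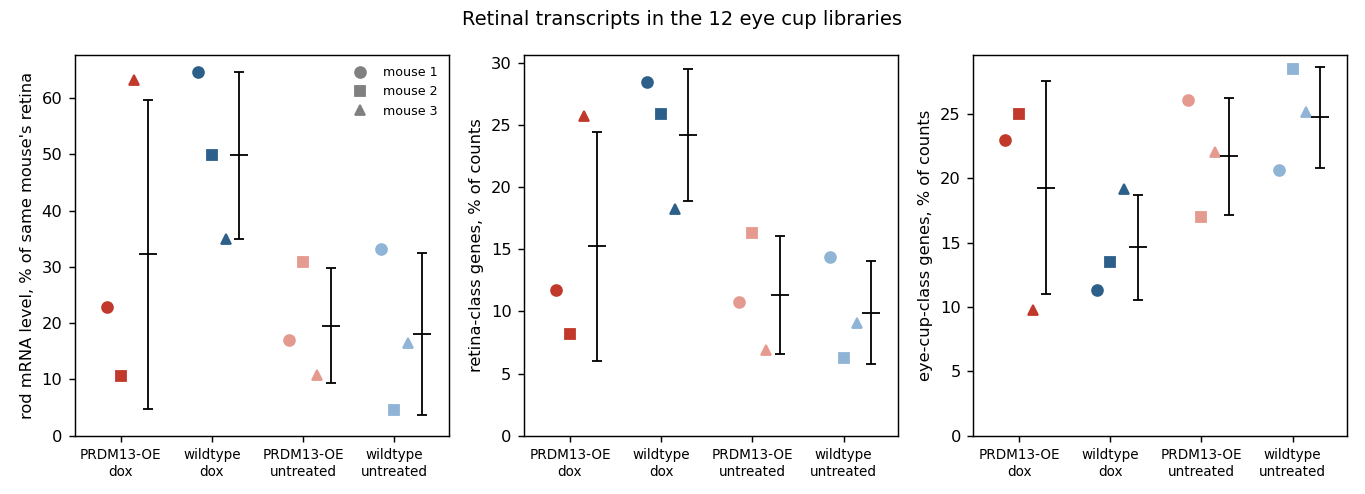
Retinal transcripts in 12 eye cups. Each symbol is a library (circle, square and triangle for mice 1 to 3), the black bars are mean ± SD of 3, and the axes start at 0. Left, rod level as a percent of that in the same mouse's retina, from 10.6 to 63.2 in PRDM13-OE with dox and from 35.02 to 64.7 in wildtype with dox. Middle and right, percent of counts in retina-class and eye-cup-class genes, where PRDM13-OE mouse 3 stands apart from the other PRDM13-OE mice with dox.

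Genes were sorted by tissue with the untreated wildtype libraries. These are no part of the comparison of the 6 eye cups, though their eye cups enter the fit with the rod slope described below. Genes at least 8 times higher in eye cup than in retina formed an eye cup class of 2010, those at least 2 times higher in retina a retina class of 3929, and 10653 expressed genes were shared. Retina-class genes took 11.8%, 8.21% and 25.7% of the counts in PRDM13-OE eye cups and 28.4%, 25.9% and 18.2% in wildtype eye cups. Eye-cup-class genes moved the other way, at 23.0%, 25.02% and 9.80% against 11.3%, 13.5% and 19.2%. PRDM13-OE mouse 3 thus had the smallest share of eye-cup-class counts of the 6, and over all genes its eye cup had a mean correlation of 0.968 with the wildtype eye cups and 0.939 with those of its own group. The difference in retina-class counts, −8.95 percentage points, had an exact permutation p of 0.2.

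In the 6 eye cups, 4 of 21758 genes were called, at a log2-fold change beyond 1 and an adjusted p below 0.05 (0.0184% of those tested, edgeR quasi-likelihood test with Benjamini-Hochberg adjustment). Gm13394, a processed pseudogene at chr2:28823622-28824621 (GRCm39), was higher in PRDM13-OE. Hbb-bs and Hbb-bt, which encode adult β-globin chains, and Hba-a1, which encodes α-globin, were lower. At an unadjusted p under 0.05, 1792 genes (8.24%) differed. DESeq2 on the same counts called 62 genes higher (0.285%) and 59 lower (0.271%). All 3 PRDM13-OE eye cups were above all 3 wildtype eye cups for 7.51% of the genes, and below them for 8.13%.

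The 3 genes called lower were all globin genes. Hbb-bs stood at 4.33, 4.66 and 4.67 CPM in PRDM13-OE and at 105, 215 and 225 CPM in the wildtype, which differed by −5.27 on the log2 scale (SE 0.37, adjusted p = 0.0254 by edgeR). Hba-a1 was at 5.80, 5.12 and 6.08 CPM against 102, 226 and 266 CPM, or −5.07 in log2-fold terms (SE 0.42, adjusted p = 0.0300 by edgeR). Hbb-bt was at 0.368, 0.341 and 0.117 CPM against 14.8, 28.3 and 29.2 CPM, or −6.33 in log2-fold terms (SE 0.51, adjusted p = 0.0300 by edgeR). The groups did not overlap for any of these. Hba-a2, which is nearly identical to Hba-a1 so that reads can be split between them, had −5.10 (SE 0.51) and missed the threshold (edgeR adjusted p = 0.0636). Alas2, the erythroid enzyme of haem synthesis, was at 2.99, 3.18 and 1.05 CPM against 4.11, 8.67 and 10.7 CPM (−1.63, SE 0.54, edgeR adjusted p = 0.597). PRDM13-OE eye cups with dox lay below the other 9 eye cups, as the summed level of these 5 red blood cell genes was 14.1, 14.3 and 12.4 CPM there, 238 to 559 CPM in wildtype with dox, 558 to 1167 CPM in untreated PRDM13-OE and 491 to 3459 CPM in untreated wildtype. In the neural retinas of the same mice, Hbb-bs differed by −6.17 (SE 0.41), Hba-a1 by −5.63 (SE 0.49) and Hbb-bt by −4.79 (SE 0.68), each called by edgeR. Blood left in the vessels at dissection was not recorded in the sources used here, and its part in the result was not tested. The edgeR calls of all 3 globin genes were lost without PRDM13-OE mouse 1, PRDM13-OE mouse 2, wildtype mouse 2 or wildtype mouse 3, while over the 6 fits that each left out an eye cup the log2-fold changes lay between −5.55 and −5.05 for Hbb-bs, −5.39 and −4.77 for Hba-a1, and −6.66 and −5.98 for Hbb-bt. With the rod slope over 12 eye cups, described below, edgeR did not call them and DESeq2 did, at the log2-fold changes given there.

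The promoters of the 3 called globin genes are shown because these were the genes called lower. They span 250 bases before to 50 after the transcript start, from RefSeq on GRCm38.p6, on the gene's strand, and matches on either strand are in capitals, namely of the GATA core AGATAA, of the erythroid box with the letters CACCC, and of the TATA box searched for as TATAAA.
Hbb-bs (chr7:103827879-103828178, minus strand): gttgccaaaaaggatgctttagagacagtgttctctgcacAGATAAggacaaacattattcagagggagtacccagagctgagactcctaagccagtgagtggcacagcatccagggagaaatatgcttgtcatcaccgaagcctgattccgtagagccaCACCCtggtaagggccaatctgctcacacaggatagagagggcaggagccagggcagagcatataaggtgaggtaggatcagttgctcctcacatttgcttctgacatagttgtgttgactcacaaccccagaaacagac
Hbb-bt (chr7:103813874-103814173, minus strand): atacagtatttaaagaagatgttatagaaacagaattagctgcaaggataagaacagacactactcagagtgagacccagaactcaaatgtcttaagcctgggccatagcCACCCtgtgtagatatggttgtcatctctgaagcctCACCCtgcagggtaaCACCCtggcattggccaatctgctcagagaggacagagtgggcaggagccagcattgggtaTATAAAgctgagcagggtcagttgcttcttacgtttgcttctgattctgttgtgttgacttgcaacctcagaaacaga
Hba-a1 (chr11:32283422-32283721, plus strand): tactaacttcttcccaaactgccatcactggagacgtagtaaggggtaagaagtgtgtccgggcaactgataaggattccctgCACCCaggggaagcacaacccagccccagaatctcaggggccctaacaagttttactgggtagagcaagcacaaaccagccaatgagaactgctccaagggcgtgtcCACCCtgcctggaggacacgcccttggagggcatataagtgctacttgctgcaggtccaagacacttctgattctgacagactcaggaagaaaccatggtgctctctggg
All 3 hold CACCC, which erythroid Krüppel-like factors read and which is also in 57.5% of 32851 promoters of that length. Its match nearest to the start begins at −90 in Hbb-bs, −89 in Hbb-bt and −60 in Hba-a1. TATAAA was found in Hbb-bt alone, beginning at −28, and is in 13.6% of promoters, and the GATA core AGATAA was found in Hbb-bs alone and is in 11.2%. Other forms of the GATA core, such as the tgataa printed for Hba-a1, were not searched for. Of the 9 genes called in either of the main fits, 6 had a promoter in the table.

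Gm13394 was at 213, 239 and 531 CPM in PRDM13-OE and at 7.61, 3.52 and 3.14 CPM in wildtype eye cups, and its log2-fold change was 6.16 (SE 0.56, adjusted p = 0.0405 by edgeR). It was also high without dox, at 329 and 206 CPM in untreated PRDM13-OE eye cups 2 and 3. As a processed pseudogene it can take reads of a near-identical transcript. Its call was kept in 1 of the 6 fits that each left out an eye cup, the fit without PRDM13-OE mouse 3, and its log2-fold change lay between 5.66 and 6.65 in these fits. With the rod slope over 12 eye cups, described below, edgeR did not call it. Without the eye cup labelled untreated PRDM13-OE mouse 1, edgeR with the slope called it higher.

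The fit turned on PRDM13-OE mouse 3, the eye cup with the retina share of a wildtype library. Without it, edgeR called 548 genes higher and 1219 lower. Of the lower genes 1169 were of the retina class, where none was higher, and of the higher genes 290 were of the eye cup class, where 8 were lower. Leaving out wildtype mouse 1 gave 0 higher and 4 lower, all globin genes. Leaving out PRDM13-OE mouse 1, PRDM13-OE mouse 2, wildtype mouse 2 or wildtype mouse 3 gave no calls by edgeR, with 1204, 1342, 580 and 1474 genes at an unadjusted p under 0.05. Over all 6 libraries the median log2-fold change was −0.50 in the retina class, 0.11 in the shared class and 0.43 in the eye cup class, against 0.05 over all genes tested. Without PRDM13-OE mouse 3 these medians were −0.97, 0.14 and 0.72. Without PRDM13-OE mouse 2 the retina class stood at −0.30 and the eye cup class at 0.14, where 69 genes were higher and 87 lower at an unadjusted p under 0.05, and without wildtype mouse 3 the eye cup class stood at 0.67. Scaled by TMM over eye-cup-class genes, the median of the eye cup class in the 6 libraries was −0.03 and that of the retina class −0.63.

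To set genotype apart from retinal content, each gene was fitted over all 12 eye cups with 4 group means and a shared slope on the log2 rod level, leaving out the rod genes themselves. The median slope, in log2 units of a gene per log2 unit of rod level, was 0.42 in the retina class, −0.39 in the eye cup class and −0.07 in the shared class. With the slope the median log2-fold change between the genotypes with dox was −0.07 in the retina class, −0.02 in the shared class and −0.19 in the eye cup class. Without PRDM13-OE mouse 3 the eye cup class stood at 0.09 and the retina class at −0.18, and without the eye cup labelled untreated PRDM13-OE mouse 1 the eye cup class stood at −0.09. Without PRDM13-OE mouse 1 the eye cup class stood at −0.35 and without wildtype mouse 3 at −0.06. TMM over eye-cup-class genes put the eye cup class at 0.06, the retina class at 0.22 and the shared class at 0.25. In the eye cup class, 27 genes were higher and 142 lower at an unadjusted p under 0.05, whereas without the slope, in the 6 eye cups, 182 were higher and 25 lower. These counts depended on scaling and on single libraries. TMM over eye-cup-class genes gave 58 higher and 55 lower with the slope and 45 and 73 without it, and with the slope there were 53 and 53 without PRDM13-OE mouse 3 and 53 and 157 without untreated PRDM13-OE mouse 1. The same 12 libraries without a slope gave no calls by edgeR (1708 genes at an unadjusted p under 0.05), and 23 higher and 21 lower by DESeq2.

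**Figure D2:**
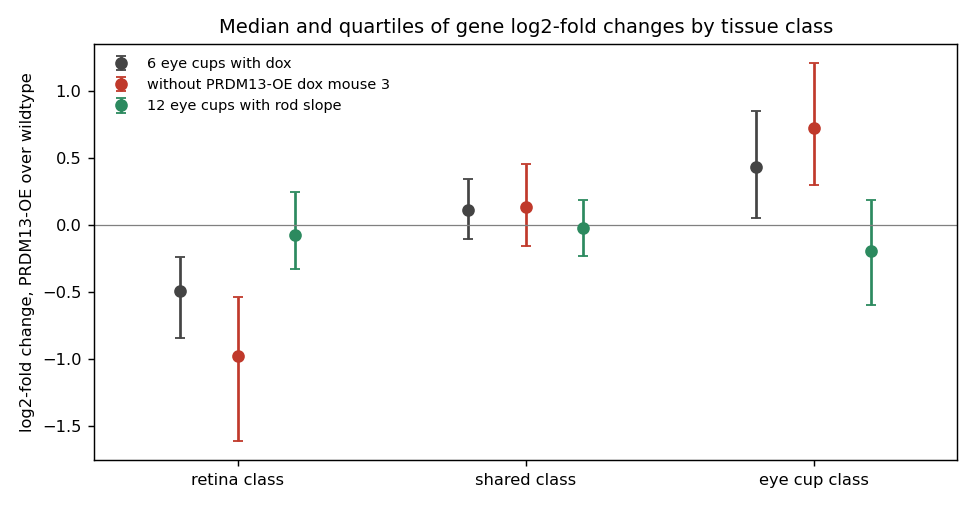
Log2-fold changes of PRDM13-OE over wildtype eye cups with dox by tissue class. Points are medians over the genes of a class and bars run from the lower to the upper quartile, in the 6 eye cups, without PRDM13-OE mouse 3, and in 12 eye cups with the rod slope. The retina class has medians of −0.50, −0.97 and −0.07 and the eye cup class 0.43, 0.72 and −0.19 in these fits.

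With the rod slope, 5 of 23822 genes were called (0.0210%), 3 higher and 2 lower in PRDM13-OE, with 1460 genes (6.13%) at an unadjusted p under 0.05. DESeq2 called 53 higher (0.222%) and 57 lower (0.239%). Fabp7, Slc29a4 and Pde6c were higher, and Cdhr1 and Htr3a were lower. None of the 5 was called in the 6 libraries without a slope by edgeR. Without the eye cup labelled untreated PRDM13-OE mouse 1, 6 genes were called higher and 6 lower, and they included these 5, at 5.55 for Fabp7, 2.70 for Slc29a4, 1.69 for Pde6c, −2.26 for Cdhr1 and −3.75 for Htr3a. The others were Drd4, Gm13394 and mt-Co3, higher, and F3, Gnb3, Rnf123 and Tulp1, lower. In all 12 eye cups with the slope, edgeR called none of the genes called in the 6 libraries. Hbb-bs was at −4.99 (SE 0.74, edgeR adjusted p = 0.0803) and Hba-a1 at −4.84 (SE 0.81, edgeR adjusted p = 0.121). Hbb-bt was at −5.89 (SE 1.00, edgeR adjusted p = 0.128) and Gm13394 at 6.63 (SE 1.25, edgeR adjusted p = 0.205). DESeq2 with the slope called them all, and Hba-a2 lower.

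Fabp7, a fatty acid binding protein of glia and neural progenitors, was at 40.7, 15.4 and 84.0 CPM in PRDM13-OE and at 1.58, 2.71 and 0.51 CPM in wildtype eye cups, with no overlap. With the slope its log2-fold change was 5.45 (SE 0.57, adjusted p = 0.0102 by edgeR), and in the 6 libraries it was 4.95 (SE 0.80, adjusted p = 0.528 by edgeR). In the retinas of the same mice it was 6.86 (SE 0.18). For each gene the retina share of an eye cup was multiplied by the gene's level in that mouse's retina, to give the level that retina carried along with the rods would bring. For Fabp7 this carried level was 23.9, 10.7 and 59.8 CPM in PRDM13-OE, or 58.7%, 69.8% and 71.2% of what was measured. Untreated PRDM13-OE eye cups had 3.61, 7.18 and 5.81 CPM of Fabp7, and untreated wildtype eye cups 1.12 to 2.11 CPM.

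Slc29a4, a plasma membrane transporter of monoamines and adenosine, was at 52.3, 19.1 and 130 CPM in PRDM13-OE and at 19.2, 17.3 and 13.0 CPM in wildtype, so that PRDM13-OE mouse 2 was level with the highest wildtype mouse. Its log2-fold change was 2.62 with the slope (SE 0.33, adjusted p = 0.0402 by edgeR) and 2.14 in the retinas (SE 0.10). The carried level was 31.7, 18.1 and 92.8 CPM in PRDM13-OE. Pde6c, the catalytic subunit of the cone phosphodiesterase, was at 38.2, 23.4 and 134 CPM against 42.3, 42.4 and 22.5 CPM, and the groups overlapped. At a given rod level Pde6c was higher by 1.62 on the log2 scale (SE 0.19, adjusted p = 0.0244 by edgeR), beside 0.92 (SE 0.61, adjusted p = 0.627 by edgeR) in the 6 libraries and 1.31 (SE 0.09) in the retinas. Its carried level exceeded the measured level in all 6 eye cups, from 108% to 150% of it.

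Cdhr1, a cadherin of photoreceptor outer segments, was at 85.7, 50.3 and 156 CPM in PRDM13-OE and at 865, 741 and 539 CPM in wildtype eye cups, with no overlap. Its log2-fold change was −2.34 with the slope (SE 0.23, adjusted p = 0.0102 by edgeR), −2.82 in the 6 libraries (SE 0.44, adjusted p = 0.511 by edgeR) and −1.95 in the retinas (SE 0.06). The carried level of Cdhr1 was 91.4, 38.8 and 276 CPM in PRDM13-OE and 967, 749 and 565 CPM in wildtype, which is 77.2% to 177% of the measured level. Htr3a, a subunit of the serotonin-gated ion channel, was the only gene of the eye cup class among the 5. It was at 1.10, 2.67 and 1.17 CPM in PRDM13-OE with dox and at 7.95, 18.0 and 17.2 CPM in wildtype with dox, and the 6 untreated eye cups lay between 15.9 and 51.2 CPM. Its log2-fold change was −3.82 with the slope (SE 0.39, adjusted p = 0.0102 by edgeR), −3.08 in the 6 libraries (SE 0.48, adjusted p = 0.511 by edgeR) and −2.91 in the retinas (SE 0.47). Its carried level was at most 0.475 CPM in PRDM13-OE mice and 2.75 CPM in the wildtype mice, 40.7% or less of what was measured.

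Leaving out each of the 6 eye cups with dox in turn, the fold changes with the slope lay on the log2 scale between 5.00 and 6.09 for Fabp7, 2.24 and 2.75 for Slc29a4, 1.28 and 1.77 for Pde6c, −2.47 and −2.29 for Cdhr1, and −4.09 and −3.58 for Htr3a. Without PRDM13-OE mouse 1, PRDM13-OE mouse 3 or wildtype mouse 3 edgeR made no call with the slope, with 1170, 1444 and 972 genes at an unadjusted p under 0.05. Without PRDM13-OE mouse 2 all but Pde6c were called, without wildtype mouse 1 only Htr3a and without wildtype mouse 2 only Fabp7. No gene was called for a difference between eye cup and retina in its genotype effect (genotype-by-tissue term with mouse as a block, chosen after seeing the data, 1260 genes at an unadjusted p under 0.05, edgeR).

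**Figure D3:**
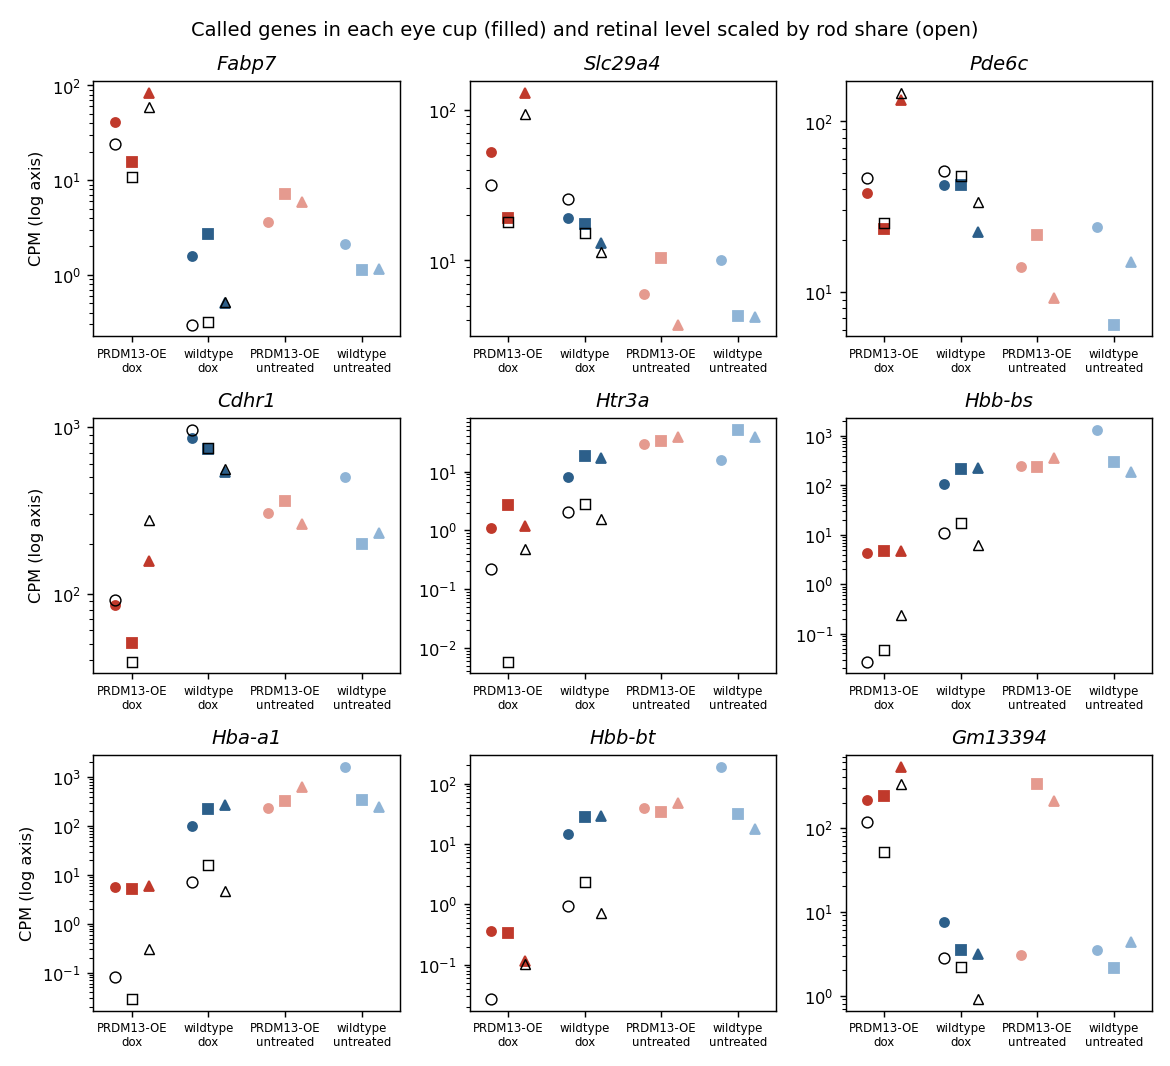
The 9 genes called in the 6 eye cups or with the rod slope. Filled symbols are CPM in each of 12 eye cups on a log axis (circle, square and triangle for mice 1 to 3), and open symbols are the carried level in the 6 eye cups with dox, drawn where above 0. The globin genes of PRDM13-OE with dox lie below the 9 other eye cups, and the carried level lies close to the measured one for Pde6c and Cdhr1 and below it for Htr3a, Hbb-bs and Hba-a1.

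Retinal cell types were followed by lists of marker genes. In the 6 libraries the median log2-fold change was −0.78 for rods, −1.38 for cones, −1.40 for photoreceptor regulators and maintenance genes, −0.81 for bipolar, −0.71 for amacrine, −1.05 for horizontal and −0.68 for ganglion cells, with no member called by edgeR in any of these lists. Without PRDM13-OE mouse 3 these 7 medians lay between −2.65 and −1.52, and without PRDM13-OE mouse 2 between −1.01 and −0.33. DESeq2 called the cone genes Arr3, Cnga3 and Gnb3 and the photoreceptor gene Rgs9 lower. In bulk tissue, fewer cells of a type and less RNA per cell cannot be told apart. With the slope the medians of the inner retinal lists moved to 0.04 for bipolar, 0.52 for amacrine, 0.03 for horizontal and 0.27 for ganglion cells, and those of cones and photoreceptor regulators were −0.58 and −0.53, closer to 0 than in the 6 libraries. Scaled to eye-cup-class genes they were −0.24 and −0.25, and the inner retinal lists 0.35 to 0.84. Leaving out 1 eye cup with dox moved the slope medians of bipolar and horizontal cells to either side of 0 (−0.09 to 0.28 and −0.04 to 0.39), and those of cones between −0.70 and −0.37. In the retinas of the same mice the cone list stood at −1.21, and 8 of 16 photoreceptor regulators were called lower by edgeR, where 1.50% of all genes tested were. At an unadjusted p under 0.05 with the slope, 7 of 12 cone genes and 10 of 16 photoreceptor regulators differed, against 1 of 11 bipolar, 0 of 11 amacrine, 1 of 6 horizontal and 0 of 8 ganglion genes, where the share was 6.13% over all genes and 8.48% over the retina class, and edgeR called none but Pde6c. DESeq2 with the slope called Gnat2, Gnb3, Opn1mw, Rgs9, Samd11 and Tulp1 lower, and Pde6c and the bipolar gene Cabp5 higher.

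Among these, Gnb3, a G protein subunit of cones and ON bipolar cells, was at 16.7, 7.96 and 44.8 CPM in PRDM13-OE and at 172, 135 and 79.1 CPM in wildtype (−1.61 with the slope, SE 0.21, edgeR adjusted p = 0.0540). Tulp1, which is needed for transport into outer segments, was at 93.1, 52.0 and 314 CPM against 988, 724 and 485 CPM (−1.26, SE 0.18, edgeR adjusted p = 0.0738). Rgs9, which shuts off transducin, was at 23.0, 17.7 and 38.5 CPM against 129, 165 and 119 CPM (−1.96, SE 0.30, edgeR adjusted p = 0.0852). The groups did not overlap for these 3 genes, which missed the threshold in edgeR. Gnb3 and Tulp1 passed it with robust fitting, and also without the eye cup labelled untreated PRDM13-OE mouse 1. Their log2-fold changes in the retinas were −1.82, −1.55 and −1.42. The measured sum of the cone genes was close to the carried one in each eye cup, which made up 81.5% to 112% of it, and the photoreceptor regulators were at 91.8% to 119%. For amacrine genes the carried sum made up 54.4%, 30.4% and 96.6% of the measured sum in PRDM13-OE and 103%, 79.6% and 73.3% in wildtype. The Müller glia list, whose carried sum was 3.5% to 45.8% of the measured one, had a median of 0.05 in the 6 libraries. Its median slope on the rod level was −0.14, beside 0.89 to 1.30 in the other retinal lists. The value of this list therefore need not describe Müller glia.

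EdgeR called no gene of the RPE lists in either fit, and DESeq2 called Rdh10, a retinol dehydrogenase, lower with the slope (−1.32, adjusted p = 0.0119). Of the visual cycle genes, the middle log2-fold change was −0.05 in the 6 libraries and −0.58 with the slope, transport and junction genes 0.03 and −0.38, phagocytosis and lysosome genes 0.17 and −0.29, regulators and secreted factors −0.04 and −0.43, and melanin genes −0.09 and −0.69. The medians of all genes tested were 0.05 and −0.03. Scaling to eye-cup-class genes instead moved the median of all genes by −0.31 in the 6 libraries and by 0.28 with the slope, and put the 5 RPE medians between −0.52 and −0.20 in the 6 libraries and between −0.39 and 0.01 with the slope. In the 6 libraries the 5 medians lay between −0.55 and −0.10 without PRDM13-OE mouse 2 and between 0.05 and 0.37 without wildtype mouse 3, and with the slope between −0.87 and −0.20 over the fits that left out 1 eye cup with dox. With the slope 11 of 12 visual cycle genes and 13 of 13 melanin genes were negative, as were 52.7% of all genes and 63.8% of the eye cup class. So were 15 of 15 endothelial, 18 of 18 scleral, 15 of 16 basement membrane and 10 of 10 complement genes. Of the visual cycle and melanin genes 4 and 4 had an unadjusted p under 0.05, beside 8.41% of the eye cup class. Lrat, which esterifies retinol, was at 318, 505 and 231 CPM in PRDM13-OE and at 200, 291 and 503 CPM in wildtype (0.13 in the 6 libraries, SE 0.43, edgeR adjusted p = 0.927). Rpe65 had −0.45 (SE 0.41) in the 6 libraries and −0.97 with the slope (SE 0.36, adjusted p = 0.772 by edgeR). Rdh5, the 11-cis retinol dehydrogenase, was at 558, 1767 and 603 CPM against 607, 835 and 1262 CPM, and Slc16a8, the basolateral lactate transporter, at 507, 1539 and 554 CPM against 521, 829 and 1086 CPM. In all 4 the groups overlapped, and PRDM13-OE mouse 2, with the smallest retina share, was the highest of its group.

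Among other RPE genes, Kcnj13, the apical potassium channel, had 0.28 (SE 0.48) in the 6 libraries and −0.34 (SE 0.47) with the slope, and Best1, a basolateral anion channel, 0.65 (SE 0.38) and 0.43 (SE 0.45). Best1 was at 1.47, 2.05 and 1.75 CPM in PRDM13-OE, above the 1.30, 0.813 and 1.33 CPM of the wildtype. Mertk, the receptor for outer segment uptake, had −0.19 (SE 0.26) and −0.57 (SE 0.31), its ligand Gas6 0.23 (SE 0.28) and −0.05 (SE 0.24), and the integrin gene Itgb5 0.08 (SE 0.28) and −0.34 (SE 0.20). Mitf, a transcription factor of pigment cells, had −0.33 (SE 0.29) and −0.74 (SE 0.27), and Otx2, shared by RPE and retina, 0.07 (SE 0.21) and −0.06 (SE 0.29). The melanin enzymes Tyr, Tyrp1 and Dct had 0.01 (SE 0.42), −0.55 (SE 0.47) and 0.10 (SE 0.58) in the 6 libraries. None of these passed the edgeR test in either fit. The sum of the visual cycle genes was 8401, 22831 and 9914 CPM in PRDM13-OE and 11201, 12663 and 21942 CPM in wildtype, so that PRDM13-OE mouse 1 was lowest although its retina share was 22.9%. The carried sum was at most 5.7% of it.

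**Figure D4:**
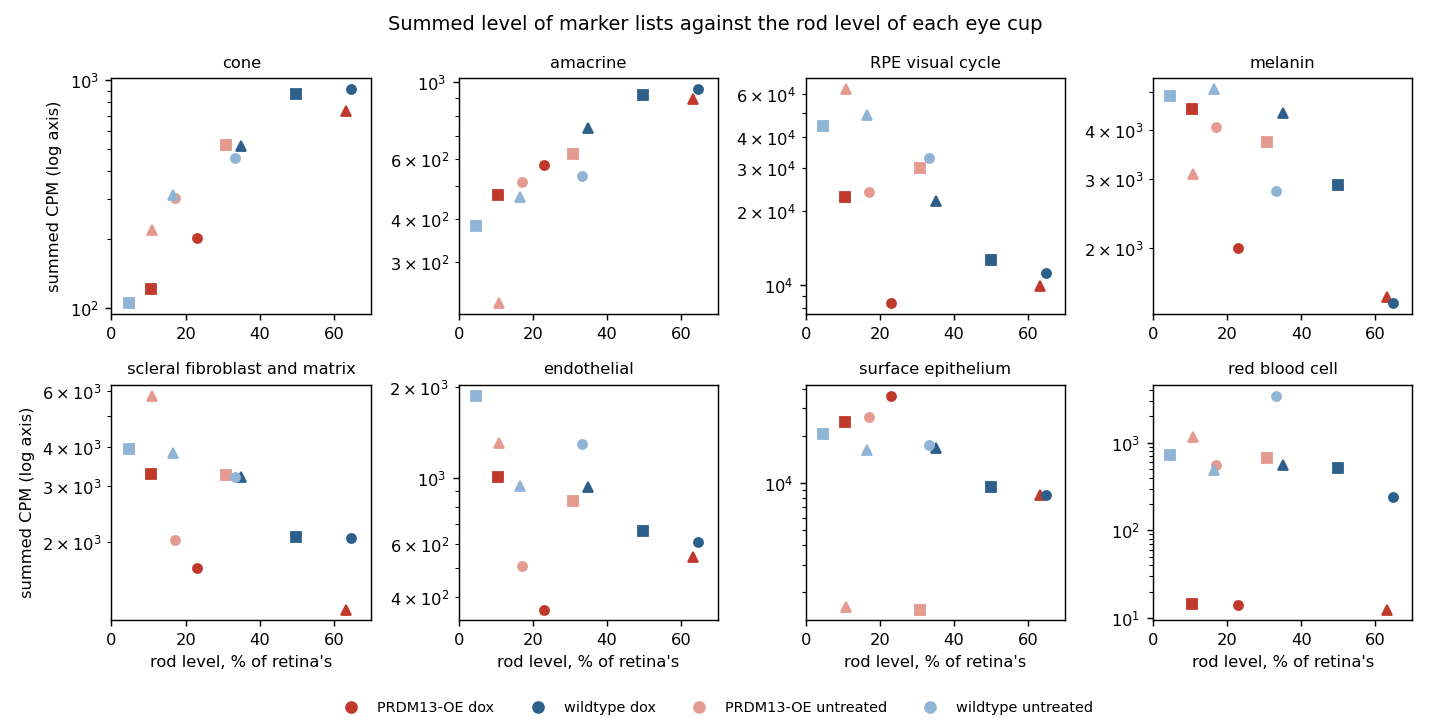
Summed CPM of 8 marker lists in 12 eye cups on log axes against the rod level as a percent of that in the same mouse's retina. Cone and amacrine sums are higher and visual cycle sums lower in libraries of higher rod level, with PRDM13-OE mouse 1 with dox at 8401 CPM of visual cycle genes and 22.9%. Red blood cell genes lie at 12.4 to 14.3 CPM in PRDM13-OE with dox and at 238 CPM or more in the other 9 eye cups.

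Choroidal lists likewise held no edgeR call, and DESeq2 called Kdr and the mast cell gene Hdc lower. Endothelial genes had a median of 0.07 in the 6 libraries and −0.53 with the slope, mural and smooth muscle genes 0.08 and −0.27, macrophage genes 0.20 and −0.03, and mast cell genes −0.61 and −1.22. In the 6 libraries these medians were −0.30, −0.19, −0.31 and −1.17 when scaled to eye-cup-class genes, and with the slope −0.16, −0.06, 0.22 and −0.92. Without PRDM13-OE mouse 2 the endothelial and mural medians in the 6 libraries were −0.47 and −0.15, and without wildtype mouse 3 they were 0.46 and 0.39. With the slope the endothelial median was −0.81 without PRDM13-OE mouse 3 and −0.22 without wildtype mouse 3, and that of mast cells lay between −1.49 and −0.86. Kdr, the main VEGF receptor, was at 32.2, 45.3 and 60.2 CPM in PRDM13-OE and at 174, 154 and 112 CPM in wildtype, without overlap. Its log2-fold change was −1.63 (SE 0.26), which DESeq2 called (adjusted p = 0.000134) and edgeR did not (adjusted p = 0.528). Kdr belongs to the retina class, its carried level was 21.5% to 96.2% of the measured one, and its log2-fold change in the retinas was −1.33. The endothelial genes Pecam1 and Cdh5 had 0.28 (SE 0.39) and 0.07 (SE 0.44), and the smooth muscle genes Acta2 and Myh11 0.08 (SE 0.37) and −0.28 (SE 0.41). The macrophage receptor gene Csf1r had 0.01 (SE 0.33), and Cd68 was at 10.4, 15.2 and 5.38 CPM against 10.3, 10.2 and 11.8 CPM. Of the mast cell proteases, Mcpt4 was at 0.782, 2.22 and 0.292 CPM against 3.10, 2.28 and 1.61 CPM, with −2.59 with the slope (SE 0.66, adjusted p = 0.489 by edgeR and 0.0249 by DESeq2), and Cma1 and Cpa3 had −0.55 (SE 0.54) and −0.61 (SE 0.51) in the 6 libraries.

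Scleral fibroblast and matrix genes had a median of −0.01 in the 6 libraries and −0.58 with the slope, and genes of Bruch membrane and basement membranes −0.04 and −0.63, with no call by edgeR and with Col8a2 called lower by DESeq2 with the slope. In the 6 libraries these medians were −0.46 and −0.65 without PRDM13-OE mouse 2 and 0.23 and 0.23 without PRDM13-OE mouse 3, and with the slope leaving out 1 eye cup with dox moved them between −0.69 and −0.45 and between −0.84 and −0.34. Scaled to eye-cup-class genes they were −0.46 and −0.49 in the 6 libraries and −0.31 and −0.33 with the slope. The fibrillar collagens Col1a1, Col1a2 and Col3a1 had −1.01 (SE 0.51, adjusted p = 0.597 by edgeR), −0.31 (SE 0.41) and −0.21 (SE 0.34). Col1a1 was at 229, 329 and 136 CPM in PRDM13-OE and at 303, 308 and 828 CPM in wildtype, and wildtype mouse 3 set the difference. Eln, which encodes elastin, had −0.03 (SE 0.47), and the fibulins Fbln5 and Fbln1 −0.22 (SE 0.43) and 0.53 (SE 0.68).

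Tissue that adheres to the outside or front of the globe also differed between libraries. Skeletal muscle genes summed to 1408, 3239 and 397 CPM in PRDM13-OE and to 807, 719 and 288 CPM in wildtype, and surface epithelium genes such as Krt5 and Krt15 to 36130, 24541 and 8333 CPM against 8429, 9440 and 16593 CPM. Both lists overlapped between the groups, and their medians were 1.46 and 0.99 in the 6 libraries and 0.05 and 0.26 with the slope, with no member called. Without PRDM13-OE mouse 2 the muscle median was 0.44, and without PRDM13-OE mouse 1 the epithelium median was 0.41. Scaled to eye-cup-class genes they were 0.62 and 0.43. With the slope, leaving out 1 eye cup with dox moved them between −0.59 and 1.04 and between −0.30 and 1.10. Schwann and myelin genes summed to 1106, 524 and 286 CPM against 1660, 3760 and 351 CPM. Their median was −1.10 in the 6 libraries and −1.57 with the slope, or −0.40 and −1.09 without wildtype mouse 2, and DESeq2 with the slope called Sox10, a transcription factor of Schwann cells, lower (−1.52, adjusted p = 0.0171). Lens genes had a median of −3.33, which was −5.16 without PRDM13-OE mouse 2 and −2.29 without wildtype mouse 1, and −3.62 with the slope, which was −1.38 without PRDM13-OE mouse 3. In the 6 libraries 10 of the 14 tested were lower in all PRDM13-OE eye cups than in all wildtype eye cups (8.13% of all genes), none of them called by edgeR and 1, Crybb1, by DESeq2. The α-crystallin gene Cryaa was at 26.4, 132 and 1.11 CPM against 1308, 271 and 247 CPM, and in the retinas the median of the lens list was −8.15 with 14 of 14 genes called lower (1.50% of all genes). How much lens was left at dissection was not tested.

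The genes ranked next by p in the 6 libraries were called by DESeq2 and not by edgeR. Msln, which encodes the surface protein mesothelin, was at 78.6, 142 and 46.7 CPM in PRDM13-OE with dox and at 4.34, 3.09 and 6.59 CPM in wildtype with dox, with no more than 5.72 CPM in the 6 untreated eye cups (4.29, SE 0.51, edgeR adjusted p = 0.152). Its carried level was 0.0802 CPM or less, and edgeR without a count filter called it and Sbsn. Sbsn, a secreted protein of keratinised epithelia, was at 13.6, 14.2 and 8.65 CPM against 1.80, 2.11 and 2.24 CPM (2.62, SE 0.31, edgeR adjusted p = 0.152). Serpinb3a and Krt90 had 2.12 (SE 0.36) and 2.45 (SE 0.41), Vsig8 2.64 (SE 0.41) and Gast, which encodes gastrin and was below 2 CPM in all libraries, 4.41 (SE 0.73). Of the lower genes, Gulo, the last enzyme of ascorbate synthesis, had −2.08 (SE 0.28) and Shroom2, an actin-binding protein, −1.09 (SE 0.17). The surface epithelium sums given above were highest in PRDM13-OE mice 1 and 2 and lowest of the 6 in PRDM13-OE mouse 3. In the 6 untreated eye cups these sums lay between 1550 and 26457 CPM. The part of surface epithelium in these values was not tested.

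With the slope, the remaining ranked genes, which DESeq2 called and edgeR did not, were Tmem26 (3.16, SE 0.54), mt-Co3 (1.72, SE 0.34) and the pseudogene Gm9843 (1.01, SE 0.20) on the higher side, and Nog (−2.63, SE 0.39) and Rnf123 (−1.23, SE 0.19) on the lower side. In other fits with the slope, edgeR called mt-Co3 and Rnf123 without the eye cup labelled untreated PRDM13-OE mouse 1. It also called Tmem26 with TMM over eye-cup-class genes and Nog with a replicate block. Nog, a secreted antagonist of bone morphogenetic proteins, was at 6.21, 17.3 and 6.37 CPM in PRDM13-OE with dox and at 18.0, 27.3 and 58.9 CPM in wildtype with dox, beside 44.7 to 139 CPM in the 6 untreated eye cups (edgeR adjusted p = 0.0803). Tmem26 was at 12.0, 3.87 and 23.5 CPM against 3.89, 2.06 and 2.16 CPM, and in the retinas its log2-fold change was 3.63.

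**Figure D5:**
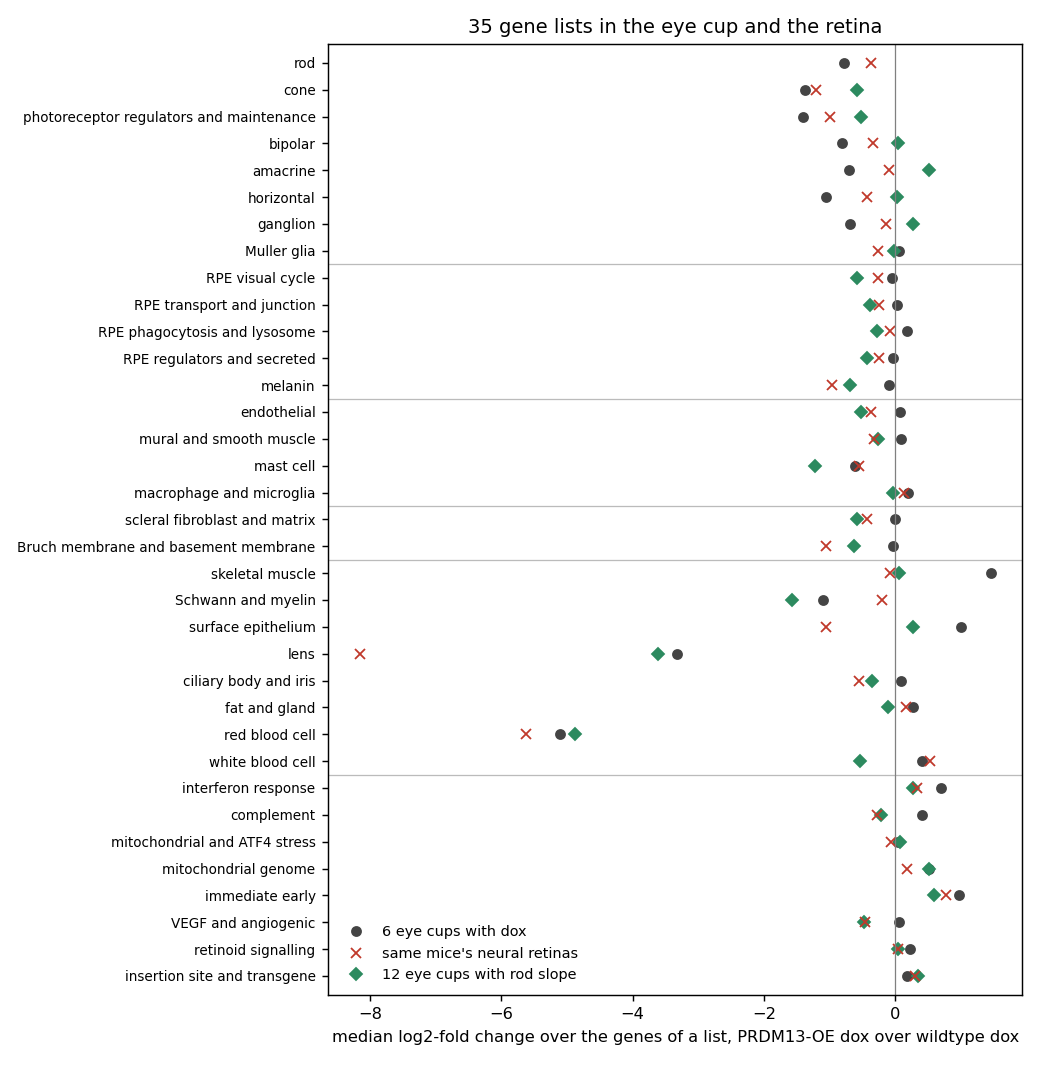
Median log2-fold change of each of 35 gene lists, PRDM13-OE with dox over wildtype with dox, in the 6 eye cups (circles), in 12 eye cups with the rod slope (diamonds, not drawn for rods) and in the retinas of the same mice (crosses). Horizontal lines part retina, RPE, choroid, sclera, adhering tissue and response lists. Retinal lists lie at −1.40 to 0.05 in the 6 eye cups, and red blood cell and lens lists at −5.10 and −3.33.

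Response lists held no edgeR call. The 12 immediate early genes were all positive in the 6 libraries, as were 54.2% of all genes, and 4 had an unadjusted p under 0.05, beside 8.24% of all genes. Their median was 0.97, which was 0.60 without PRDM13-OE mouse 1 and 0.57 when scaled to eye-cup-class genes. Egr1 was at 104, 83.8 and 88.9 CPM in PRDM13-OE and at 71.6, 41.0 and 30.3 CPM in wildtype, without overlap (1.03, unadjusted p = 0.0141). The 10 interferon response genes were positive as well, with a median of 0.70, which was 0.41 without PRDM13-OE mouse 2 and 0.24 when scaled to eye-cup-class genes. Ifit1 was at 26.1, 31.8 and 36.2 CPM against 15.1, 21.4 and 12.0 CPM (1.02, unadjusted p = 0.00363). The interferon sums ranged from 350 to 613 CPM in dox-treated PRDM13-OE eye cups, against 289 to 326 CPM for dox-treated wildtype. Untreated wildtype eye cups spanned 338 to 498 CPM and untreated PRDM13-OE eye cups 280 to 451 CPM, so both overlapped dox-treated PRDM13-OE. In the same order, immediate early sums spanned 476 to 818, 319 to 387, 329 to 508 and 260 to 671 CPM, with the same overlap. With the slope the immediate early and interferon medians were 0.59 and 0.27, and 0.88 and 0.55 when scaled to eye-cup-class genes. The 13 protein-coding genes of the mitochondrial genome had a median of 0.51 in both fits, which without PRDM13-OE mouse 3 was 0.29 in the 6 libraries and 0.09 with the slope. DESeq2 called mt-Co3 (adjusted p = 0.000134), at 255, 173 and 299 CPM against 99.0, 66.7 and 78.6 CPM. In untreated eye cups mt-Co3 was at 158, 370 and 386 CPM in PRDM13-OE and at 252, 220 and 175 CPM in wildtype. Complement genes had 0.41 and −0.22, VEGF and angiogenic genes 0.06 and −0.48, and mitochondrial and ATF4 stress genes 0.04 and 0.07. Retinoid signalling genes had 0.22 and 0.04. Without PRDM13-OE mouse 2 the complement and VEGF medians in the 6 libraries were 0.01 and −0.31. Scaled to eye-cup-class genes, the complement, VEGF, stress and retinoid medians in the 6 libraries were −0.12, −0.45, −0.27 and −0.08. With the slope and this scaling they were −0.07, −0.23, 0.35 and 0.34. The mitochondrial genome median under this scaling was 0.40 in the 6 libraries and 0.84 with the slope.

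The transgene encodes human PRDM13, so mouse Prdm13 counts need not record it. Mouse Prdm13 was at 8.61, 2.90 and 30.0 CPM in PRDM13-OE and at 29.6, 24.8 and 15.7 CPM in wildtype eye cups (−0.71, SE 0.72, edgeR adjusted p = 0.736), and its carried level was 99.0% or more of the measured one in each. At the insertion site, the noncoding Gt(ROSA)26Sor was at 10.6, 11.4 and 15.7 CPM against 9.86, 8.07 and 8.196 CPM (0.58, SE 0.23, edgeR adjusted p = 0.597), while its neighbours Setd5 and Thumpd3 had 0.02 (SE 0.18) and 0.32 (SE 0.22). With the slope, Gt(ROSA)26Sor had 0.64 (SE 0.22, adjusted p = 0.715 by edgeR).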

How the data were processed

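RNA of eye cups and neural retinas was sequenced on Illumina platforms, with 3 mice in each of 8 groups. Per the labels, reads were handled with CASAVA and HISAT2 on GRCm39, and the tool and annotation used for counting were not given in the sources used here. The authors deposited a read count and an FPKM value per gene and library. FPKM values, deposited by the authors, were not used, and neither were the columns of their own comparisons (fold changes, p-values and group means).

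Counts were tested with edgeR 4.0.16 (TMM, quasi-likelihood) in R 4.3.3 for genes whose counts over the fitted libraries came to 10 or more, with Benjamini-Hochberg adjustment over all genes tested. DESeq2 1.42.0 was an alternative. Genes were called at a log2-fold change beyond 1 and an adjusted p below 0.05. CPM are scaled over the 12 eye cups, and overlap between groups was counted on CPM scaled over the 6, where Slc29a4 and Tmem26 did not overlap. Class limits were 8-fold and 2-fold with at least 1 CPM. Named genes were those called, the 8 higher and 8 lower of smallest p in each main fit without overlap, beyond a log2-fold change of 1 and with at least 10 counts in each library of the higher group, the insertion site list, called members of any list, and the first 3 genes of the retina, RPE, choroid and sclera lists. Other genes were named from their lists after their values were seen. The comparison, the 35 lists and the rules were chosen with earlier results of these data known. Scripts were tested on simulated data. Groups came from the labels, and mouse numbers were not used as pairs, since same-numbered eye cups of different genotype are different mice and their deviations correlated at −0.081, −0.081 and −0.328.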

Additional observations from a re-analysis of the deposited data

How the results depend on the processing

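Counts of calls depended on the fit, and of the called genes Cdhr1 changed sign in 1 fit, to 8.55 (SE 3.98) after subtracting the carried level, which exceeded its measured level in 5 of 6 eye cups. In the 6 eye cups, against 1 higher and 3 lower, edgeR called 0 and 3 with library size alone, 0 and 4 with TMM over eye-cup-class genes, 3 and 5 without a count filter, 0 and 3 with filterByExpr, 1 and 3 with robust fitting, 0 and 0 with a replicate block (829 genes at an unadjusted p under 0.05) and 6 and 6 with the rod slope in these libraries. DESeq2 called 62 and 59, and 90 and 166 with that slope (chosen after seeing the data). Leaving out each of the 6 gave 0 to 548 higher and 0 to 1219 lower, with 0 to 298 calls in the eye cup class and 0 to 1169 in the retina class against 3 and 0. With the rod slope, against 3 higher and 2 lower, there were 53 and 57 with DESeq2, 2 and 2 with library size alone, 7 and 4 with TMM over eye-cup-class genes, 9 and 10 without a filter, 3 and 4 with robust fitting, 1 and 3 with a replicate block, 6 and 6 in the 6 eye cups, 1 and 2 with the linear retina share, and 0 and 0 with the level of other retinal neurons (1163 at an unadjusted p under 0.05) or after subtracting the carried level (813). Leaving out each of the 6 eye cups with dox gave 0 to 2 higher and 0 to 2 lower, with 0 to 1 calls in the eye cup class and 0 to 2 in the retina class against 1 and 3. Without the eye cup labelled untreated PRDM13-OE mouse 1 (chosen after seeing the data) there were 6 and 6. Over 12 eye cups without a slope, against 0 and 0, DESeq2 called 23 and 21, a replicate block gave 0 and 0 (1396 at an unadjusted p under 0.05), and 1 higher and 0 lower, Gm13394, were called without that library. The causes were not tested. TMM over eye-cup-class genes moved the median of all genes by −0.31 in the 6 eye cups and by 0.28 with the slope, and turned the sign of 14 of 35 and 4 of 34 list medians, among them RPE phagocytosis (0.17 to −0.20) and transport (0.03 to −0.35).

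The retina share rests on rod mRNA, which was itself lower in PRDM13-OE retinas with dox, and assumes that carried retina has the makeup of the whole. With 3 mice a group and shares from 10.6% to 64.7%, the fits could not separate small effects in eye cup tissue from retinal content.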
